A study of Mus musculus with 24 samples.

Results

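Hearts of C57BL/6 mice taken after 45 min of ischemia without any return of flow were compared with hearts taken after sham surgery. The comparison used the 6 libraries whose treatment label named one of these groups, 3 of ischemia and 3 of sham, out of 24 libraries in 8 groups of 3. The other groups had the same ischemia followed by 0.5, 1, 1.5, 3, 6 or 12 h of reperfusion; of these, only the 0.5 h group is set beside ischemia here. All groups shared the strain and were described as wild type, and total RNA of heart tissue was made into libraries with a TruSeq kit. The labels did not give the age or sex of the mice, how flow was stopped, how long after sham surgery hearts were taken or which region of the heart was sampled. Nor did they say whether each library was a different mouse, so that p-values measure only the spread between libraries, which may be technical. For the tests of genes, that spread was estimated over all 24 libraries.

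Heart muscle lives on the oxidation of fatty acids and sugars in its mitochondria, and a stop of blood flow cuts off oxygen and substrate together while acid, calcium and mechanical load build up in the tissue. Among the fastest transcriptional answers of any cell to such signals are the immediate early genes, whose promoters are already loaded and which need no new protein to be switched on. Many encode transcription factors, such as the AP-1 subunits of the Fos and Jun families, and their messages are short-lived because the cell also makes proteins that bring about their decay.

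The 6 libraries held 13407465 to 16556020 uniquely mapped reads counted in genes, and 15128 genes had enough reads to be tested. The defining genes of ventricular muscle were abundant in all of them, with 299408 to 523032 reads of Myh6, the alpha myosin heavy chain. Of 8 listed atrial genes, Sln and Bmp10 had 0 reads in each of the 6 libraries, Myl7 had 0 to 7 and Myl4 had 7 to 23. The others, Dkk3, Kcnj3, Pam and Nppa, had 15 to 9944 reads, so that the list as a whole was not absent. With 0 reads, a level of up to 0.181 to 0.224 CPM (reads scaled to a common library size) was possible, counting 3 reads as the limit and counting error only.

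Ischemia replicate 3 stood apart from the other 5 libraries. Set against each of them gene by gene, its counts gave a chi-square of 58.3 to 81.3 times the degrees of freedom, and pairs of the other 5 gave 7.28 to 17.9 times. Reads of the mitochondrial genome made up 19.0% of its counts, against 30.2% and 29.7% in ischemia replicates 1 and 2, 28.9% to 33.2% in sham and 20.02% to 22.3% at 0.5 h. Duplicates made up 41.2% of its reads against 50.1% to 54.5% in the other 5. On the second principal component of all 24 libraries (16.8% of the variance) it lay at -0.21, within the 0.5 h libraries at -13.1 to 8.98, while replicates 1 and 2 lay at 30.4 and 23.0 and sham at 37.1 to 37.6. Whether this library was mislabelled, prepared differently or taken from a heart in another state was not tested. The calls and fold changes against sham below are therefore given with it and, where a fold change is printed, also without it.

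Its difference from sham followed the GC content of the transcripts. Over the decile of genes with the lowest GC content (median 39.6%), the median difference of log2(CPM + 0.5) from the sham mean was -0.42 in replicate 3, and over the decile with the highest (median 59.4%) it was 0.41. The same medians were 0.06 and -0.09 in replicate 1 and -0.04 and 0.02 in replicate 2. In the 0.5 h libraries they were -0.36 to -0.31 and 0.35 to 0.39. The slope across GC content was thus as steep in replicate 3 as after reperfusion, and nearly flat in the other ischemia libraries. By gene length the libraries grouped otherwise. Over the tercile of shortest genes with at least 5 CPM, the medians were 0.0087, 0.11 and 0.13 in ischemia replicates 1 to 3. They were 0.10 to 0.18 at 0.5 h. Over the tercile of longest genes they were 0.0052, -0.09 and -0.11 in ischemia, and -0.15 to -0.11 at 0.5 h. Replicate 2 thus lay with replicate 3 by length.

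**Figure D1:**
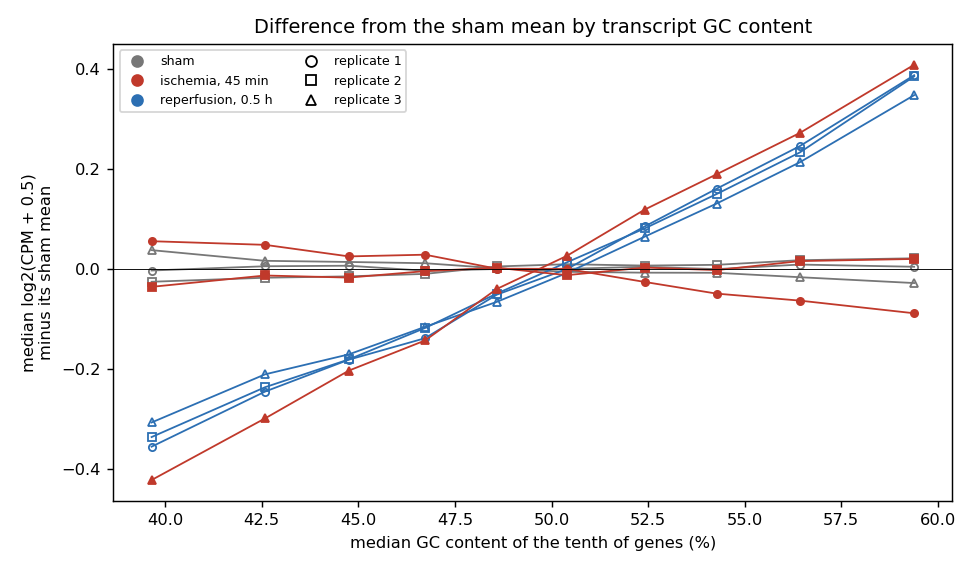
Median difference of each library from the sham mean, as log2(CPM + 0.5) (y axis), over 10 groups of 1009 genes ordered by the GC content of their transcripts in percent (x axis); colours are groups and marker shapes are replicates. Ischemia replicate 3 runs from -0.42 to 0.41 along the 0.5 h libraries, and ischemia replicates 1 and 2 stay with sham.

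With all 6 libraries, 14 genes were higher in ischemia than in sham (0.0925% of the genes tested) and 0 were lower, at an adjusted p under 0.05 by edgeR's quasi-likelihood test with Benjamini-Hochberg adjustment. At an unadjusted p under 0.05, 884 genes were higher (5.84%) and 412 were lower (2.72%), 8.57% in either direction. Without ischemia replicate 3, 8 genes were higher (0.0518% of 15442 tested) and 1 was lower (0.00648%), with 453 higher (2.93%) and 345 lower (2.23%), 5.17% in either direction, at an unadjusted p under 0.05. All 8 that were higher were among the 14. They were Fos, Fosb, Junb, Ptgs2, Cxcl1, Cxcl2, Il6 and Gm43360. The calls of Zfp36, Atf3, Nfkbiz, Egr3, Il1b and Gem were lost without the third library. Replicates 1 and 2 lay above all 3 sham libraries for each of them, as they did for 13.3% of all tested genes. All 3 ischemia libraries lay above sham for 7.74% of all tested genes, so that absence of overlap alone is common. A loss of calls was not particular to ischemia replicate 3. Leaving out sham replicate 1 or 2 instead gave 5 calls and sham replicate 3 gave 7. Leaving out ischemia replicate 1 gave 39 and ischemia replicate 2 gave 14.

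**Figure D2:**
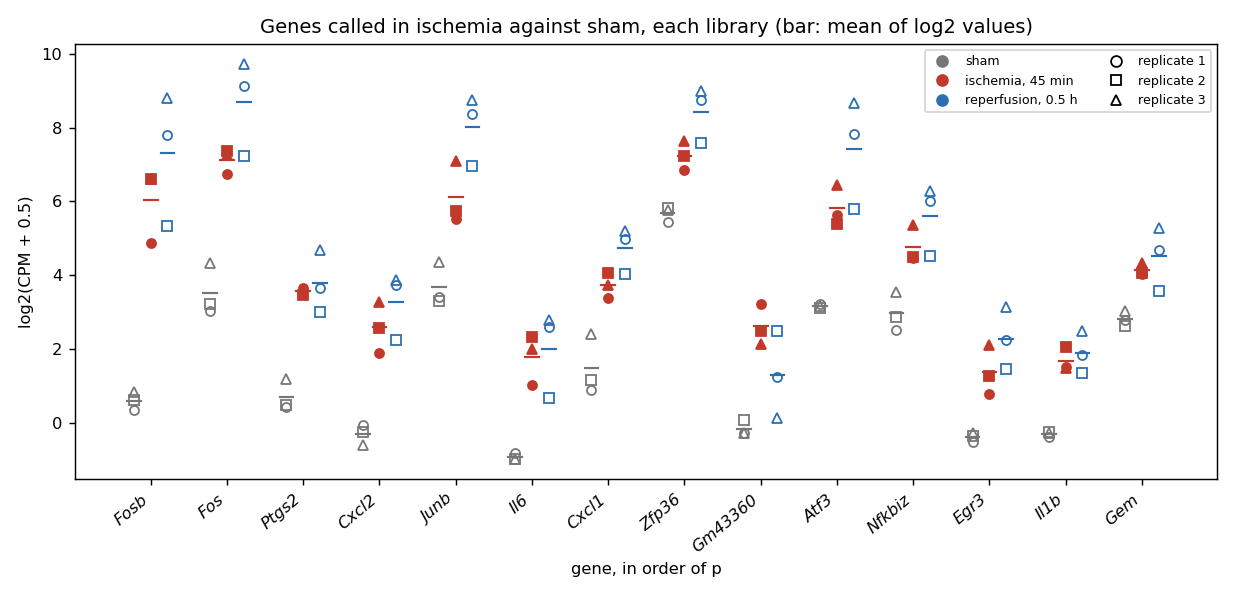
Level of the 14 genes called higher in ischemia, as log2(CPM + 0.5) in each library of sham (grey), ischemia (red, filled) and 0.5 h of reperfusion (blue); bars are means of the log2 values and marker shapes are replicates. The 3 ischemia libraries lie above the 3 sham libraries for all 14, and at 0.5 h replicates 1 and 3 lie higher still for Junb, Zfp36 and Atf3, while replicate 2 overlaps with ischemia.

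Of the called transcription factors, the AP-1 subunits Fosb and Fos had the largest log2 fold changes. Fosb was low in sham at 0.771, 1.03 and 1.28 CPM and was at 28.9, 96.6 and 97.5 CPM in ischemia. All 3 ischemia libraries stood far above sham, with replicate 1 the lowest of them. The log2 fold change was 6.19 ± 0.80 (SE, adjusted p = 0.000415), and it was 5.94 ± 0.84 without replicate 3 (adjusted p = 0.00271). Fos, its close relative, had 7.64, 8.77 and 19.5 CPM in sham and 106, 164 and 154 CPM in ischemia. The groups did not overlap, and replicate 3 lay between the other two. Its log2 fold change was 3.58 ± 0.46 (adjusted p = 0.000415), and 3.51 ± 0.49 without replicate 3 (adjusted p = 0.00271).

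Junb, a partner of the Fos proteins, depended more on the third library. It had 10.1, 9.38 and 19.9 CPM in sham and 45.8, 52.8 and 137 CPM in ischemia, so that replicate 3 was well above replicates 1 and 2, and these were above sham. The log2 fold change was 2.60 ± 0.40 (adjusted p = 0.00357), and 1.92 ± 0.36 without replicate 3 (adjusted p = 0.0412). Jun, which dimerises with Fos to form the classical AP-1, had 30.8, 49.0 and 65.9 CPM in sham and 81.9, 106 and 148 CPM in ischemia. The groups did not overlap, but the log2 fold change of 1.21 ± 0.35 did not pass the test (adjusted p = 0.269), nor did that of 0.95 ± 0.38 without replicate 3 (adjusted p = 0.883).

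Of the 10 AP-1 subunits tested, 3 were called higher, none was called lower and 6 were higher at an unadjusted p under 0.05. Over all tested genes, 0.0925% were called higher and 5.84% were higher at an unadjusted p under 0.05. The median log2 fold change of the subunits was 0.93, beside 0.0040 over all tested genes, and 0.50 without replicate 3, beside -0.00052. By library, the median difference of the subunits from the sham mean was 0.57 and 0.50 in replicates 1 and 2 and 1.60 in replicate 3. Jund, the subunit usually held at a steady level, had 36.3 and 52.8 CPM in replicates 1 and 2 and 111 CPM in replicate 3, against 36.5 to 39.7 CPM in sham. Fosl2 had 62.1, 59.6 and 135 CPM against 36.9 to 49.0 CPM. Neither Jund nor Fosl2 passed the test (adjusted p = 0.428 and 0.330, and 0.988 and 0.980 without replicate 3).

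In other immediate early factors the place of replicate 3 varied. Egr3, a zinc finger factor, had 0.193, 0.274 and 0.320 CPM in sham and 1.21, 1.91 and 3.78 CPM in ischemia, the highest in replicate 3. Its log2 fold change was 3.14 ± 0.61 (adjusted p = 0.0340), and 2.55 ± 0.65 without replicate 3 (adjusted p = 0.408). It was the only one called of 22 tested members of the Egr, Nr4a and other immediate early factors, of which 11 were higher and none lower at an unadjusted p under 0.05, with a median of 0.80, and of 0.49 without replicate 3. Over all tested genes, 5.84% were higher and 2.72% lower at that threshold. The orphan nuclear receptor Nr4a2 had 1.71 to 1.92 CPM in sham and 4.83, 7.56 and 8.67 CPM in ischemia, without overlap (log2 fold change 1.96 ± 0.42, adjusted p = 0.0814). Without replicate 3, which lay close to replicate 2, the change of Nr4a2 was 1.77 ± 0.47 (adjusted p = 0.446). Egr2, a relative of Egr3, had 1.22 to 2.96 CPM in sham and 6.50, 8.34 and 8.72 CPM in ischemia, again with replicate 3 beside replicate 2 (adjusted p = 0.157, and 0.554 without replicate 3). Maff, a small Maf factor, had 12.1 and 15.1 CPM in replicates 1 and 2, overlapping with sham at 7.12 to 13.5 CPM, and 49.3 CPM in replicate 3.

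Atf3, the factor named in the title of the series, is a stress-induced member of the ATF and CREB family that binds sites close to those of AP-1. It had 8.86, 8.08 and 8.47 CPM in sham and 48.9, 41.2 and 86.7 CPM in ischemia. The sham libraries were nearly equal and all 3 ischemia libraries were several times higher. The log2 fold change was 2.80 ± 0.53 (adjusted p = 0.0266). Without replicate 3 it was 2.41 ± 0.55 and no longer passed (adjusted p = 0.208). At 0.5 h its level was 227, 55.4 and 404 CPM, and of the other 15 tested members of the family 0 were called. Fancd2, a DNA repair protein also named in the title, had 0.449, 0.479 and 0.720 CPM in sham and 1.27, 1.48 and 1.48 CPM in ischemia. These levels rest on few reads, and the log2 fold change of 1.37 ± 0.71 did not pass the test (adjusted p = 0.628), nor did that of 1.33 ± 0.81 without replicate 3 (adjusted p = 0.980).

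Zfp36 and Gem, which act against parts of an acute response, rose as well. Zfp36, which binds AU-rich elements and directs the decay of cytokine and immediate early messages, had 43.3, 55.9 and 54.3 CPM in sham and 115, 149 and 199 CPM in ischemia, with a log2 fold change of 1.60 ± 0.28 (adjusted p = 0.0105). The groups did not overlap, and without replicate 3 the change was 1.37 ± 0.29 (adjusted p = 0.115). Gem, a small GTP-binding protein that restrains L-type calcium channels, had 6.36, 5.62 and 7.68 CPM in sham and 15.8, 16.2 and 19.7 CPM in ischemia (log2 fold change 1.40 ± 0.28, adjusted p = 0.0446). Its 3 ischemia libraries were close to each other, and without replicate 3 the change was 1.29 ± 0.31 (adjusted p = 0.309). Socs3, which inhibits cytokine signalling through STAT3, had 1.60 to 2.95 CPM in sham and 8.58, 16.9 and 25.5 CPM in ischemia, and missed the threshold (log2 fold change 2.80 ± 0.57, adjusted p = 0.0505). Without replicate 3, the highest library, the change of Socs3 was 2.38 ± 0.62 (adjusted p = 0.414).

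The chemokines Cxcl1 and Cxcl2 and the cytokines Il6 and Il1b rose from very low levels. Cxcl2, which attracts neutrophils, had 0.449, 0.342 and 0.160 CPM in sham and 3.22, 5.44 and 9.16 CPM in ischemia. The log2 fold change was 4.17 ± 0.60 (adjusted p = 0.00145), and 3.69 ± 0.64 without replicate 3 (adjusted p = 0.0176). Its neighbour Cxcl1, of like function, had 1.35, 1.71 and 4.80 CPM in sham and 9.92, 16.1 and 12.7 CPM in ischemia. Neither gene's groups overlapped, and for Cxcl1 replicate 3 lay between replicates 1 and 2, so that the log2 fold change was 2.34 ± 0.40 with it (adjusted p = 0.0105) and 2.36 ± 0.45 without it (adjusted p = 0.0412).

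Il6, an acute cytokine that signals through STAT3, had 1 read in the 3 sham libraries together and 151 reads in ischemia. The ratio of the levels in CPM was 136, with an exact 95% interval of 24.1 to 5416 for counting error. In ischemia its levels were 1.54, 4.52 and 3.51 CPM, and the call held without replicate 3 (adjusted p = 0.00962 and 0.0412). Il1b, the product of activated myeloid cells, had 0.257, 0.342 and 0.320 CPM in sham and 2.35, 3.60 and 2.30 CPM in ischemia (log2 fold change 3.13 ± 0.61, adjusted p = 0.0348). Replicate 3 was the lowest of the 3, and without it the change was 3.25 ± 0.67 (adjusted p = 0.102). Over the lists, 2 of 20 chemokines and 2 of 25 cytokines and receptors were called higher and none lower, beside 0.0925% of all tested genes called higher. The monocyte chemoattractant Ccl2 had 0.480 to 1.23 CPM in sham and 2.21, 5.23 and 3.57 CPM in ischemia, and did not pass (adjusted p = 0.375, and 0.830 without replicate 3).

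In the NF-kappaB list, 1 of 17 genes was called higher, beside 0.0925% of all tested genes. Nfkbiz, a nuclear IkappaB protein needed for the transcription of Il6, had 5.20, 6.78 and 11.2 CPM in sham and 21.8, 22.04 and 40.3 CPM in ischemia (log2 fold change 1.88 ± 0.36, adjusted p = 0.0266). Replicates 1 and 2 were close to each other and above sham, and the change was 1.52 ± 0.37 without replicate 3 (adjusted p = 0.317). Tnfaip3, the ubiquitin-editing inhibitor of the pathway, had 4.17, 5 and 4.08 CPM in sham and 10.3, 13.8 and 17.7 CPM in ischemia, without a call (log2 fold change 1.66 ± 0.35, adjusted p = 0.0628; without replicate 3, 1.44 ± 0.38, adjusted p = 0.446). The list's median was 0.24, and 0.18 without replicate 3.

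Ptgs2, the inducible cyclooxygenase that starts prostaglandin synthesis and is also used as a marker of ferroptosis, had nearly the same level in each ischemia library. It had 0.835, 0.890 and 1.76 CPM in sham and 12.1, 10.6 and 11.3 CPM in ischemia. The groups did not overlap, and the log2 fold change was 3.31 ± 0.47 with replicate 3 (adjusted p = 0.00121) and 3.32 ± 0.51 without it (adjusted p = 0.00703). At 0.5 h it was at 12.1, 7.48 and 25.4 CPM, overlapping with ischemia (log2 difference 0.40 ± 0.35, adjusted p = 0.652). Of the 16 tested genes of prostaglandin synthesis and its receptors, no other was called, and the list's median was 0.02.

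Set per length of the gene with the authors' RPKM values, Zfp36 was the most abundant of the 14 in ischemia at 68.4 ± 26.8 RPKM (SD, n = 3), followed by Fos at 47.1 ± 13.0 and Junb at 34.9 ± 26.8. These neighbours did not differ beyond their spread. Atf3 was at 21.9 ± 11.8 RPKM and Fosb at 15.8 ± 9.08. Cxcl2 at 2.32 ± 1.43 RPKM and Il6 at 1.03 ± 0.499 RPKM were far less abundant than these, and Egr3 was as low, at 1.32 ± 0.919 RPKM. In sham, Zfp36 was also the highest at 20.3 ± 2.28 RPKM, while Il6 was at 0.0065 ± 0.011.

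To show the promoters of genes that rose together, the 250 bases before the start of the 6 called genes with the lowest p are printed in the direction of transcription, from the RefSeq promoter table of build GRCm38.p6. Capitals mark matches to an NF-kappaB site, an AP-1 site (TGANTCA) or a TATA box (TATAAA), and positions count from 0 at the start base.
Fosb, chr7:19310046-19310295, minus strand: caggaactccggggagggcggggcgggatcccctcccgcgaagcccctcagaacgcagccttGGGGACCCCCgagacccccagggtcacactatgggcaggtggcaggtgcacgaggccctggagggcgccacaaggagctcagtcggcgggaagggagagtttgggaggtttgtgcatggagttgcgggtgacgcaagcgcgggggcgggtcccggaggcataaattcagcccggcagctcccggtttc
Fos, chr12:85473640-85473889, plus strand: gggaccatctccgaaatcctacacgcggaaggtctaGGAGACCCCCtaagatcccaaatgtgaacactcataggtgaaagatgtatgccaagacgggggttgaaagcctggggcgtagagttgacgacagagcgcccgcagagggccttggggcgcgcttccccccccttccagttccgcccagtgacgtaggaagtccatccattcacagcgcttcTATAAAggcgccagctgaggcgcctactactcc
Ptgs2, chr1:150099781-150100030, plus strand: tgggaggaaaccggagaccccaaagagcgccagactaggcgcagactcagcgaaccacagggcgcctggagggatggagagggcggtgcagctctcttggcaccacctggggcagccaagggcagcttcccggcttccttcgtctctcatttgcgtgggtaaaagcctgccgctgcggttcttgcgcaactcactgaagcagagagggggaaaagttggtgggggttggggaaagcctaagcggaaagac
Cxcl2, chr5:90903649-90903898, plus strand: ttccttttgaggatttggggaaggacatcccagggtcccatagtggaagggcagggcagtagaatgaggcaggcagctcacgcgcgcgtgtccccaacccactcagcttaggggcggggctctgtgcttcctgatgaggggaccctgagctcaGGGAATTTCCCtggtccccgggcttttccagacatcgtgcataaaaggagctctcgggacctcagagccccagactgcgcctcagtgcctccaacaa
Junb, chr8:84978749-84978998, minus strand: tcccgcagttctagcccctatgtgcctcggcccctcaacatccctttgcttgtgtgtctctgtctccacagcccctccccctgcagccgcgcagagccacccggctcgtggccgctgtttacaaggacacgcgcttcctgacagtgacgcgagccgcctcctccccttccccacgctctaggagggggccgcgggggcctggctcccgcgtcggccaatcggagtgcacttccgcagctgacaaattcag
Il6, chr5:30012864-30013113, plus strand: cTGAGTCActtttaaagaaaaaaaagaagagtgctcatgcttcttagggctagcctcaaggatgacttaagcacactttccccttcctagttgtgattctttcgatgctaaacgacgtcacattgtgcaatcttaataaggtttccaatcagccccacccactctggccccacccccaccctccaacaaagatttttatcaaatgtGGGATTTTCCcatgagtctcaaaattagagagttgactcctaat

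An NF-kappaB site was matched at -44 to -35 in Il6, at -97 to -88 in Cxcl2 (and, overlapping on the other strand, at -96 to -87), at -188 to -179 in Fosb and, on the minus strand, at -214 to -205 in Fos. Among 32851 mouse promoters in the table, 8.46% held such a match in the window from 250 bases before to 50 bases after the start. Il6 also held an AP-1 match at -249 to -243, a motif in 7.81% of promoters, and Fos a TATA box at -33 to -28, a motif in 13.6%. In the 50 bases after the start, which are not printed, Junb held a TATA box match at 0 to 5 and Ptgs2 the hypoxia response core ACGTG at 17 to 21, overlapping a match on the other strand; this core was in 19.6% of promoters. The CRE (TGACGTCA, in 1.79% of promoters), the CArG box (1.63%) and the heat shock element (GAANNTTC, 7.86%) were not matched in these 6 windows. A match says only that these letters stand there.

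Gm43360, a gene of unknown function, is the 1 called gene that fits none of these groups. It had 0.321, 0.548 and 0.320 CPM in sham and 8.85, 5.09 and 3.89 CPM in ischemia. Replicate 1 was the highest and replicate 3 the lowest, and all were well above sham. The log2 fold change was 3.87 ± 0.68 (adjusted p = 0.0111), and 4.10 ± 0.71 without replicate 3 (adjusted p = 0.0176). At 0.5 h it was at 1.87, 5.09 and 0.592 CPM, overlapping with ischemia (log2 difference -1.23 ± 0.53, adjusted p = 0.376). It lies at chr5:122492022-122494908 on the minus strand (GRCm38, GENCODE vM21), inside introns of the calcium pump gene Atp2a2 of the same strand, with no exon of its 5 transcripts overlapping. Its reads cannot be told apart from those of unspliced Atp2a2 transcripts, which were not measured here. The Atp2a2 gene as a whole had 183815 to 259797 counted reads in these 6 libraries. Gm43361, which overlaps Atp2a2 exons on the other strand, had 0.800 to 1.64 CPM in sham and 7.91, 3.11 and 1.86 CPM in ischemia, without a call (adjusted p = 0.259, and 0.208 without replicate 3). The kit named in the labels does not mark the strand of a read, so that overlapping genes on opposite strands cannot be separated either.

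Several chaperones of the endoplasmic reticulum had higher values in ischemia than in sham and at 0.5 h, with and without replicate 3. Such chaperones fold secreted proteins and are induced by the unfolded protein response when calcium or energy in that compartment falls. None of the 21 tested genes was called, but 10 were higher and 1 was lower at an unadjusted p under 0.05 with replicate 3, and 9 were higher and 1 lower without it. Over all tested genes, 5.84% were higher and 2.72% lower with replicate 3, and 2.93% and 2.23% without it. The median log2 fold change of the list was 0.28, and 0.32 without replicate 3. By library the median difference from the sham mean was 0.51, 0.19 and 0.24 in ischemia and 0.14, 0.04 and 0.06 at 0.5 h. The sham libraries themselves were at 0.12, -0.04 and -0.11, so that replicate 1 stood out most.

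Manf, a secreted protective factor of that response, had 25.6, 17.5 and 16.5 CPM in sham and 57.5, 34.6 and 41.0 CPM in ischemia, and 28.9, 32.5 and 23.96 CPM at 0.5 h. All 3 ischemia libraries were above all sham and all 0.5 h libraries (log2 fold change against sham 1.15 ± 0.25, adjusted p = 0.0865; without replicate 3, 1.21 ± 0.28, adjusted p = 0.227). Pdia4, a disulfide isomerase, had 27.9, 21.2 and 23.7 CPM in sham, 54.7, 37.9 and 35.4 CPM in ischemia and 28.0 to 31.2 CPM at 0.5 h, in the same order (log2 fold change 0.81 ± 0.22, adjusted p = 0.242; without replicate 3, 0.93 ± 0.24, adjusted p = 0.408). Hspa5, the main chaperone of the compartment, had 587, 499 and 439 CPM in sham and 867, 577 and 631 CPM in ischemia, where replicate 2 overlapped with sham. Sdf2l1, of the same list, had 3.53, 2.53 and 2.08 CPM in sham and 8.31, 3.11 and 7.19 CPM in ischemia. Its replicate 2 overlapped with sham and lay below the 0.5 h libraries at 4.20 to 5.09 CPM (log2 fold change 1.18 ± 0.40, adjusted p = 0.398; without replicate 3, 1.06 ± 0.44, adjusted p = 0.940). Ern1, the sensor that starts the response, went the other way, with 21.1 to 23.97 CPM in sham and 15.4, 14.9 and 17.6 CPM in ischemia (adjusted p = 0.419, and 0.810 without replicate 3).

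**Figure D3:**
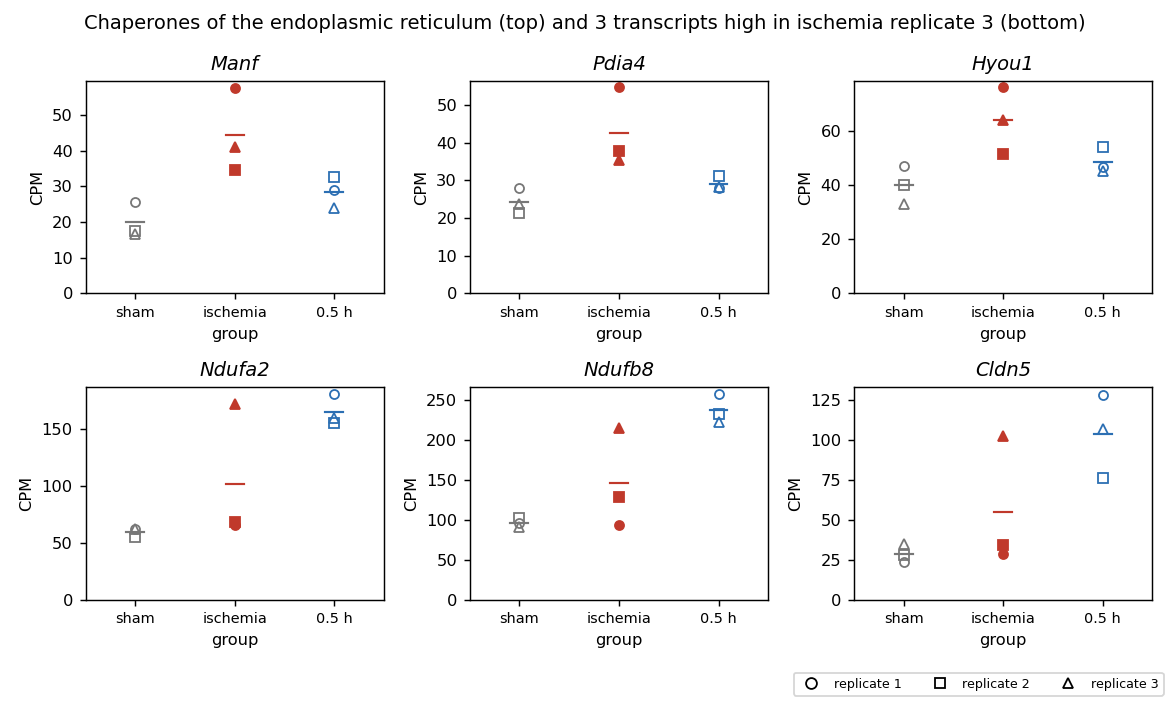
Levels in CPM of 3 chaperones of the endoplasmic reticulum (top row) and of 3 transcripts that were high in ischemia replicate 3 (bottom row) in each library of sham (grey), ischemia (red, filled) and 0.5 h of reperfusion (blue); bars are means and marker shapes are replicates. Manf is highest in the 3 ischemia libraries, whereas Ndufa2 is at 172 CPM in ischemia replicate 3, with the 0.5 h libraries, and at 65.4 and 68.3 CPM in replicates 1 and 2, just above sham.

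Other transcripts, chosen after their values were seen, were high in replicate 3 alone. Ndufa2, a subunit of respiratory complex I, had 54.9 to 61.9 CPM in sham, 65.4, 68.3 and 172 CPM in ischemia and 156 to 181 CPM at 0.5 h. Cldn5, the tight junction protein of endothelium, had 23.8 to 34.7 CPM in sham, 28.6, 34.1 and 102 CPM in ischemia and 76.4 to 128 CPM at 0.5 h. In both, replicate 3 lay among the reperfused hearts. Replicates 1 and 2 overlapped with sham for Cldn5 and lay just above it for Ndufa2. Of 33 nuclear respiratory chain subunits, 6 were higher at an unadjusted p under 0.05 with replicate 3 and 0 without it, and none was called. The share of all tested genes also fell, from 5.84% with replicate 3 to 2.93% without it. For the 12 endothelial markers the medians by library were -0.15, -0.04 and 0.06, much closer together than the values of Cldn5.

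Of 27 hypoxia-inducible genes none was called, beside 0.0925% of all tested genes called higher. At an unadjusted p under 0.05, 1 was higher and 1 lower, beside 5.84% and 2.72% of all tested genes. The median log2 fold change was -0.04, or -0.0017 without replicate 3. Vegfa, the vascular growth factor, had 293, 302 and 255 CPM in sham and 332, 277 and 338 CPM in ischemia, with overlap (log2 fold change 0.16 ± 0.15, adjusted p = 0.829; without replicate 3, 0.10 ± 0.17). Adm, which encodes the vasodilator adrenomedullin, had 5.07 to 6.85 CPM in sham and 5.23 to 6.53 CPM in ischemia. Ddit4, an inhibitor of mTOR signalling, had 63.9 to 110 CPM in sham and 109, 131 and 237 CPM in ischemia (adjusted p = 0.482, and 0.980 without replicate 3). Among 19 glycolysis enzymes none was called and the median was 0.16, with library medians of -0.02, 0.09 and 0.35. Hk2, the hexokinase of muscle, had 263 to 278 CPM in sham and 255, 266 and 319 CPM in ischemia.

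None of 26 heat shock genes was called against sham, beside 0.0925% of all tested genes called higher. The list's median was 0.06, or 0.07 without replicate 3. Hspa1a, the inducible chaperone of the cytosol, had 2.95, 1.37 and 0.480 CPM in sham, 2.21, 3.11 and 4.39 CPM in ischemia and 74.8, 86.7 and 565 CPM at 0.5 h. Sham and ischemia overlapped, and the 0.5 h libraries were all far above both. The log2 difference between 0.5 h and ischemia was 6.21 ± 0.80 (adjusted p = 0.000619), and 6.51 ± 1.01 without replicate 3 (adjusted p = 0.00207). Only 69.6% of its counted reads mapped to 1 place, since Hspa1b is a near-identical copy, and the split between these genes is uncertain.

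Of the natriuretic peptides and stretch-responsive genes none was called. Nppa, the atrial natriuretic peptide, had 23.6, 16.4 and 7.28 CPM in sham and 28.1, 48.4 and 71.6 CPM in ischemia, without overlap (log2 fold change 1.64 ± 0.34, adjusted p = 0.0556). Without replicate 3, its highest library, the change of Nppa was 1.26 ± 0.35 (adjusted p = 0.523). Nppb, the related peptide of the ventricle, had 43.6 to 84.9 CPM in sham and 148, 130 and 149 CPM in ischemia (log2 fold change 1.01 ± 0.37, adjusted p = 0.428; without replicate 3, 0.97 ± 0.42, adjusted p = 0.949). Ccn1, a secreted matrix protein, had 62.5, 90.8 and 122 CPM in sham and 235, 248 and 348 CPM in ischemia (adjusted p = 0.159, and 0.687 without replicate 3). Of 18 genes in that list 6 were higher and none lower at an unadjusted p under 0.05, and 4 without replicate 3, with a median of 0.13. In 27 matrix remodelling genes the count was 7 with replicate 3 and 5 without it, and none was called. For both lists, the share of all tested genes that were higher was 5.84% with replicate 3 and 2.93% without it. Has1, a hyaluronan synthase, had 1 read in sham and 67 in ischemia, a ratio of levels in CPM of 60.5 with an exact 95% interval of 10.5 to 2423 (adjusted p = 0.169, and 0.408 without replicate 3).

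Ferroptosis, an iron-dependent death by lipid peroxidation, is named in the title of the series. None of 25 tested genes of lipid and iron handling in that process was called, beside 0.0925% of all tested genes called higher. Their median was 0.02, or -0.02 without replicate 3. Gpx4, which reduces lipid peroxides, had 288 to 319 CPM in sham and 336, 368 and 331 CPM in ischemia (log2 fold change 0.19 ± 0.13, adjusted p = 0.753; without replicate 3, 0.21 ± 0.15, adjusted p = 0.980). The groups did not overlap, although the difference was small. Acsl4, which loads membranes with polyunsaturated fatty acids, had 22.4 to 24.9 CPM in sham and 23.0, 22.3 and 16.9 CPM in ischemia. Tfrc, the transferrin receptor, varied as much within sham (386, 257 and 103 CPM) as between groups. Slc7a11, the cystine transporter, was at 0.137 to 0.257 CPM in sham and 0.141 to 0.274 CPM in ischemia, a level of a few reads per library.

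Transcripts of the mitochondrial genome made up less of the reads in ischemia replicate 3. Their shares in replicates 1 and 2, 30.2% and 29.7%, lay within the sham range of 28.9% to 33.2%. Their share of the counted reads was 26.3% ± 6.32 in ischemia against 31.0% ± 2.14 in sham (SD, n = 3), a difference of -4.75 percentage points (exact permutation test, 2-sided, p = 0.3, where 0.1 is the smallest p possible). Without replicate 3 the difference was -1.10 points. With duplicates removed and all 3 ischemia libraries in, it was -1.04 points (7.57% against 8.61%). Of 13 tested protein genes of the mitochondrial genome none was called. At an unadjusted p under 0.05, 2 were lower, mt-Nd6 and mt-Nd5, and none was higher, beside 2.72% and 5.84% of all tested genes. The list's median log2 fold change was -0.25, and -0.35 without replicate 3. By library the median difference from the sham mean was -0.14, -0.35 and -0.73 in ischemia. mt-Nd6, the complex I subunit of the light strand, had 10385, 12817 and 14890 CPM in sham and 10623, 8242 and 3930 CPM in ischemia, with overlap (log2 fold change -0.74 ± 0.25, adjusted p = 0.403; without replicate 3, -0.43 ± 0.22, adjusted p = 0.976). Since the kit does not mark the strand of a read, reads of the opposite strand at this place cannot be told apart from mt-Nd6. mt-Nd5, its neighbour on the other strand, had 35892, 41988 and 45359 CPM in sham and 35128, 29205 and 18094 CPM in ischemia. Its groups did not overlap, and its log2 fold change of -0.58 ± 0.18 did not pass the test (adjusted p = 0.350; without replicate 3, -0.35 ± 0.16, adjusted p = 0.963).

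Of 29 genes of fatty acid uptake and oxidation, 9 lay below all sham libraries in all 3 ischemia libraries and 2 above, where 6.33% and 7.74% of all tested genes did so. In replicates 1 and 2 alone, 14 lay below sham and 2 above, beside 13.1% and 13.3% of all tested genes. None was called and the median was -0.10. Of 31 ion channels and calcium handling genes 3 lay below and 0 above, a share near that of all genes, and none was lower at an unadjusted p under 0.05. In replicates 1 and 2 alone 9 lay below and 0 above, and the list's median was -0.12 with replicate 3 and without it. The contractile genes of the sarcomere had a median of -0.01.

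The 1 gene called lower without replicate 3 was A330023F24Rik, a noncoding host transcript of microRNAs. It had 13.3, 13.4 and 16.0 CPM in sham and 3.75, 4.45 and 8.56 CPM in ischemia. The groups did not overlap, and replicate 3 was nearest to sham. Its log2 fold change was -1.79 ± 0.31 without replicate 3 (adjusted p = 0.0176) and -1.33 ± 0.29 with it (adjusted p = 0.0861). Dnm3os, another microRNA host transcript, had 8.67, 8.90 and 6.40 CPM in sham and 2.61, 2.05 and 4.004 CPM in ischemia, without a call (log2 fold change -1.45 ± 0.32 with replicate 3, adjusted p = 0.0877; without it, -1.78 ± 0.37, adjusted p = 0.103). Adgrl4, an adhesion receptor of endothelium, had 92.5 to 113 CPM in sham and 71.0 to 78.3 CPM in ischemia (log2 fold change -0.45 ± 0.11, adjusted p = 0.157; without replicate 3, -0.41 ± 0.12, adjusted p = 0.588). Its 6 values did not overlap, at a much smaller fold.

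Of the blood cell lists, those of neutrophils, monocytes and erythroid cells had higher summed levels in ischemia without overlap. The list of resident macrophages did so too. Of the 18 neutrophil markers 11 had enough reads to be tested. None of these was called, and 7 were higher and none lower at an unadjusted p under 0.05, beside 5.84% and 2.72% of all tested genes. The summed level of the tested markers was 16.6 to 22.3 CPM in sham and 25.9 to 33.3 CPM in ischemia. S100a9, a calcium-binding protein of neutrophils, had 0.128, 0.342 and 1.04 CPM in sham and 2.68, 1.91 and 3.35 CPM in ischemia. The defining marker Ly6g had 0 reads in 5 of the 6 libraries and 3 in ischemia replicate 3, and Elane had 0 in all 6. Of the erythroid list, 5 of 7 tested genes were higher at an unadjusted p under 0.05, and the summed level was 93.6 to 199.9 CPM in sham and 261 to 315 CPM in ischemia. Hbb-bs, a globin gene, had 39.7, 45.0 and 86.5 CPM in sham and 117, 141 and 135 CPM in ischemia. Lymphocyte and platelet markers did not stand apart in this way. The summed level of T and NK cell markers was 3.63 to 8.54 CPM in sham and 4.49 to 8.41 CPM in ischemia, with 0 of 8 higher at an unadjusted p under 0.05, and the sums of B cell and platelet markers overlapped as well. Ccr2, the receptor of inflammatory monocytes, had 50, 35 and 43 reads in sham and 39, 51 and 24 in ischemia. In whole tissue, fewer or more cells of a type and less or more RNA per cell cannot be told apart, and the part of blood cells in the chemokine and Il1b values was not tested.

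Ischemia replicate 2 had few reads of several genes of the mesothelium that covers the heart, such as Upk3b with 4 reads against 86 to 172 in the other 5 libraries. Wt1, a factor of the same list, had 140 reads there against 118 to 284 in the others. Its interferon-stimulated genes had a median of 0.47 above sham, whereas replicates 1 and 3 were at -0.22 and -0.51. Sham replicate 3 had the highest levels of clock outputs. Dbp, a clock-controlled factor, had 5.65, 13.2 and 48.5 CPM in sham and 2.41, 4.59 and 5.65 CPM in ischemia, and did not pass the test (adjusted p = 0.403, and 0.878 without ischemia replicate 3). The time of day at which hearts were taken is not in the labels, and its part in this was not tested.

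**Figure D4:**
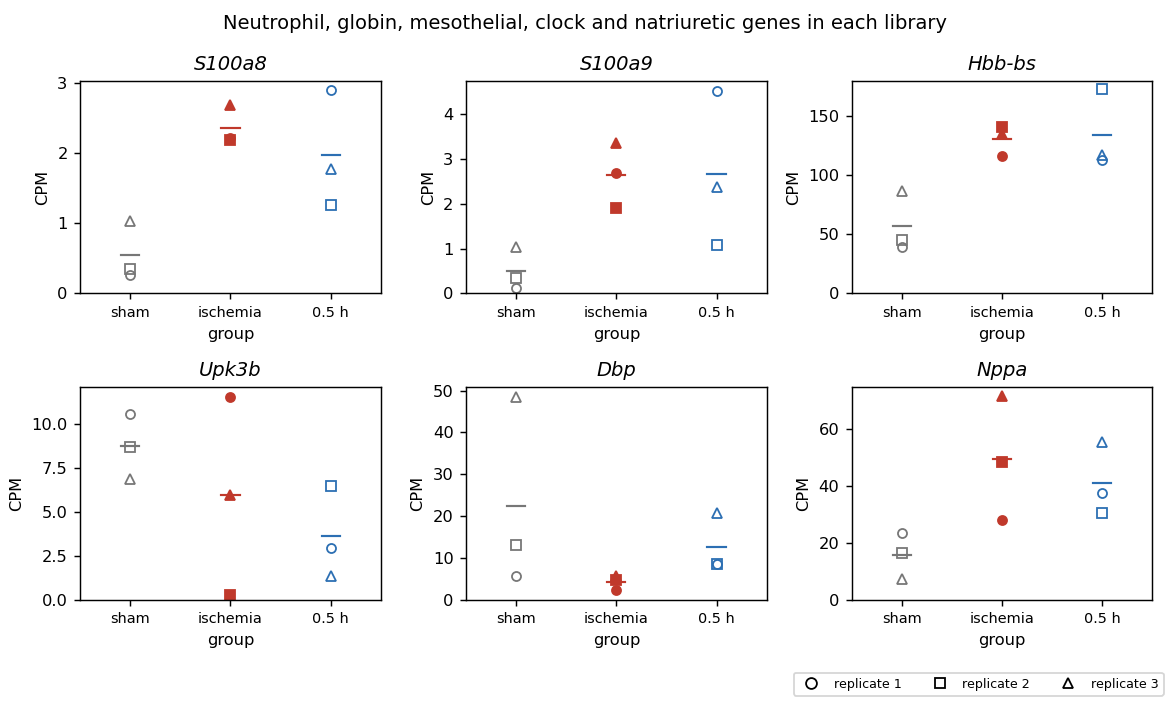
Levels in CPM of neutrophil genes (S100a8, S100a9), a globin gene (Hbb-bs), a mesothelial gene (Upk3b), a clock output (Dbp) and the natriuretic peptide Nppa in each library of sham (grey), ischemia (red, filled) and 0.5 h of reperfusion (blue); bars are means and marker shapes are replicates. S100a8, S100a9 and Hbb-bs are above sham in the 3 ischemia libraries, Upk3b is close to 0 in ischemia replicate 2, and Dbp is at 48.5 CPM in sham replicate 3.

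Over the pathway lists, the weight of the third library varied. Its median exceeded those of replicates 1 and 2 for AP-1 subunits (1.60 against 0.57 and 0.50), for the other immediate early factors (1.10 against 0.32 and 0.53) and for NF-kappaB genes (0.49 against 0.13 and 0.19). It did not exceed both for the unfolded protein response (0.24 against 0.51 and 0.19) or for chemokines (0.18 against 0.09 and 0.47). The sham medians of the clock genes spread from -0.47 to 0.52.

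**Figure D5:**
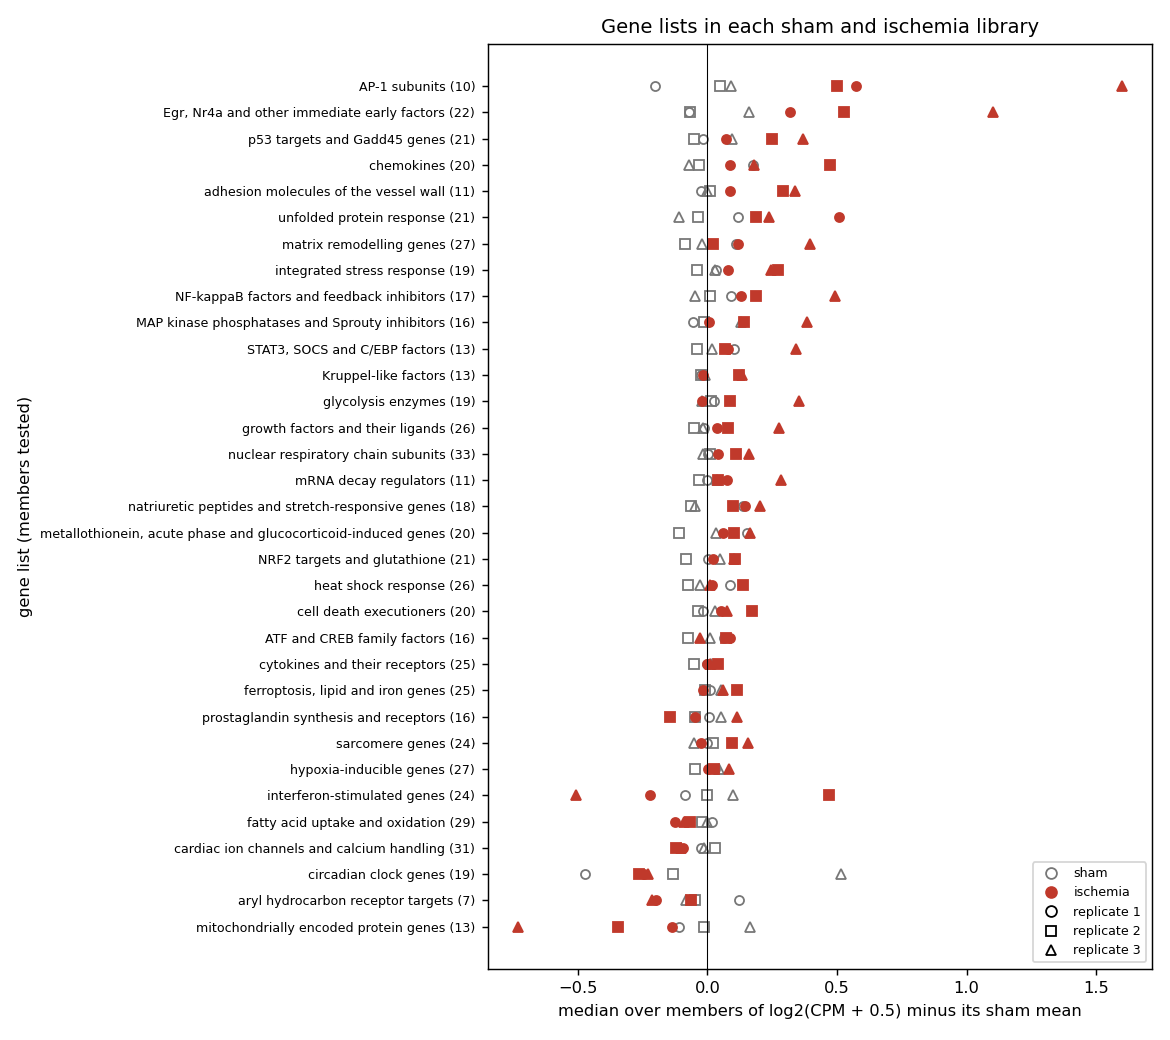
Median difference from the sham mean of log2(CPM + 0.5) over the tested members of each of 33 gene lists (x axis), in each sham (grey, open) and ischemia (red, filled) library; marker shapes are replicates and the number of members is beside each list. Ischemia replicate 3 is at 1.60 for AP-1 subunits and at -0.73 for genes of the mitochondrial genome, beyond the other ischemia libraries.

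The third library also set how different ischemia was from 0.5 h of reperfusion, in which flow had returned. With all libraries, 5 genes were higher at 0.5 h than in ischemia (0.0331%) and 0 were lower: Hspa1a, Hspa1b, Jun, Klf2 and Plekhh3. Without ischemia replicate 3, 666 genes were higher (4.31%) and 490 were lower (3.17%). These calls followed GC content. Of the 3364 genes with at least 5 CPM in the tercile of highest GC content, 500 were higher at 0.5 h and 5 were lower, and of the 3363 in the tercile of lowest GC content 22 were higher and 390 were lower. Of the 14 genes called against sham, 9 reached 5 CPM and had a GC value, 3 in each tercile. By gene length, 6 of these were in the tercile of shortest genes, 3 in the middle one and 0 in that of longest genes.

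Among the genes described above, Junb was higher at 0.5 h than in ischemia replicates 1 and 2 by a log2 difference of 2.58 ± 0.38 (adjusted p = 0.00207), with 330, 123 and 430 CPM at 0.5 h. Atf3 was higher by 2.35 ± 0.56 (adjusted p = 0.0165) and Zfp36 by 1.51 ± 0.30 (adjusted p = 0.00756). Fos (1.94 ± 0.49, adjusted p = 0.0219), Nfkbiz (1.32 ± 0.35, adjusted p = 0.0278) and Egr3 (1.65 ± 0.45, adjusted p = 0.0309) were called higher too. With replicate 3 included these differences were smaller and none was called. They were 1.90 ± 0.38 for Junb (adjusted p = 0.0629), 1.95 ± 0.48 for Atf3 (adjusted p = 0.147) and 1.28 ± 0.27 for Zfp36 (adjusted p = 0.0730). For Fos it was 1.88 ± 0.42 (adjusted p = 0.0887), and for Nfkbiz and Egr3 the adjusted p was 0.297. Fosb, Ptgs2, Il6, Il1b, Cxcl1, Cxcl2, Gem and Gm43360 were not called in the comparison without replicate 3, at adjusted p from 0.0717 to 0.850. Also without replicate 3, 4 of 21 genes of the unfolded protein response were lower at 0.5 h (Dnajb9, Dnajc3, Pdia3 and Canx). None was higher, beside 3.17% of all tested genes lower and 4.31% higher. With replicate 3 no gene was called lower at 0.5 h. Pdia3, a disulfide isomerase, had 146 to 163 CPM in sham, 253, 195 and 170 CPM in ischemia and 143 to 154 CPM at 0.5 h (log2 difference from 0.5 h without replicate 3, -0.60 ± 0.14, adjusted p = 0.0165). The ischemia libraries were above both groups, replicate 3 by the least.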

How the data were processed

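Each library has a table of read counts per gene as deposited, with duplicates kept or removed and with or without multiply mapped reads, and RPKM values computed by the authors from them. The submitters' processing notes name the build mm10; the aligner, counter, annotation release and strand setting were not given in the labels or headers. The tests used the counts from uniquely mapped reads, duplicates included, with 13407465 to 16556020 reads per library. Of 46078 gene IDs, 45229 had a position in GENCODE vM21 and 45143 matched a symbol in a reference list of gene names. Genes were kept by filterByExpr (minimum count 10, minimum total 15), scaled by TMM and fitted over all 24 libraries with edgeR 4.0.16 (R 4.3.3; quasi-likelihood test, Benjamini-Hochberg over 15128 genes, called at adjusted p under 0.05). CPM values use the TMM-scaled library sizes. Differences per library are on the log2(CPM + 0.5) scale. Each SE is the log2 fold change divided by the square root of the F statistic. The script was tested on simulated data.

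Alternatives were library totals, DESeq2 1.42.0, limma-voom (limma 3.58.1), other filters, only the 2 groups compared, duplicates removed, multiply mapped reads, no mitochondrial genes, a replicate block and leaving out each library. The members, the 33 pathway and 16 cell type lists and the tests were chosen with earlier results of these data known, and the lists were described, not tested. Named genes were those called, the 8 rises and 8 falls with the lowest p that were not called, the 3 largest changes of each list at a mean of at least 5 CPM, the 3 most abundant markers of each cell type and a fixed set (Atf3, Fancd2, genes of ferroptosis, hypoxia, heat shock, natriuretic peptides and mitochondria). Genes outside this rule, chosen after their values were seen, are Jund, Fosl2, Maff, Ccl2, Gm43361, Hspa5, Ern1, Pdia3, Dnajb9, Dnajc3, Canx, Ndufa2, Cldn5, Has1, Plekhh3, Sln, Bmp10, Myl4, Myl7, Dkk3, Ly6g, Elane, Ccr2, S100a8 and S100a9.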

Additional observations from a re-analysis of the deposited data

How the results depend on the processing

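Against sham, the 14 calls became 48 with DESeq2 (all 14 among them), 3 with limma-voom, 289 with no filter on low counts, 29 with only the 2 groups in the fit and 5 to 39 when 1 library was left out. Leaving out sham replicate 1 or 2 gave 5, sham replicate 3 gave 7, ischemia replicate 1 gave 39 and ischemia replicate 3 gave 9. With the mitochondrial share as a covariate, an alternative chosen after seeing the data, it was 8. It was 15 with library totals, which moved the median of all genes to 0.09, 11 with duplicates removed and 14 with multiply mapped reads, a minimum mean of 1 CPM, no mitochondrial genes or an offset for GC content, also chosen after seeing the data. For 0.5 h against ischemia, the 5 calls became 59 with DESeq2, 329 with no filter, 0 with only the 2 groups (1540 at an unadjusted p under 0.05), 15 with duplicates removed, 8 with multiply mapped reads, 2 with the mitochondrial share and 2 to 1156 when 1 library was left out. Over 18 alternatives the log2 fold change of Fos stayed between 3.33 and 4.11 and was called in all, and that of Atf3 between 2.41 and 3.00 with 12 calls. Hspa1b against sham, 0.19 with all libraries and -0.36 to 0.80 when 1 library was left out, changed sign, to -0.32 without sham replicate 2, to -0.36 without ischemia replicate 3 and to -0.77 with the mitochondrial share. The cause of these changes was not tested.

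The replicate numbers were not taken to pair the samples. Same-numbered sham and ischemia libraries had correlations of -0.0091, -0.0056 and -0.0387 between their deviations from the group means. Differently numbered ones had -0.0156 to 0.0226. With 3 libraries a group, such values cannot show whether the numbers pair the samples. With the replicate number as a block, the calls against sham were 14, the same 14 genes, and those for 0.5 h against ischemia were 12. Counts of few reads limit Fancd2, Slc7a11, Il6 and the neutrophil markers, and 3 libraries a group limit every comparison.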
